A study of Mus musculus with 12 samples.

Results

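The integrated stress response and its ATF4 target program were followed through 33 genes, matched by symbol to 34 of the 56748 rows of a liver RNA-seq count table. Ddit3 accounts for the additional row, a duplicate entry that was listed at 0 in every liver and is not described further. The members fall into 6 transcription factors, 3 eIF2alpha kinases, 6 feedback and growth regulators, 7 enzymes of serine and one-carbon metabolism, 5 enzymes of asparagine, proline, alanine and phosphoenolpyruvate synthesis, 5 amino acid transporters and 1 tRNA exporter. Total RNA was sequenced from the livers of mice fasted for 24 h, in 3 genotypes with 4 livers each. WT livers carried floxed Cpt1a, Cpt1b and Cpt2 alleles and no deletion. Whether they were littermates of either knockout is not given in the sources used here, so a difference of mouse line and the deletion cannot be told apart in comparisons with WT. In the single knockout (SKO), Cpt2 was deleted in the liver, and in the double knockout (DKO) Atf3 and Cpt2 were both deleted there. Whether SKO and DKO mice were littermates is not given either, so the same limit holds between them. The deletions were driven by Cre under the albumin promoter, which is active in hepatocytes, and deletion in the other cells of the liver was not measured here. Ages were not given in the sources used here, and each liver is taken as that of 1 mouse. All p-values measure the spread between these 4 livers. Because whole liver was sequenced, fewer cells of a type and less RNA per cell cannot be told apart.

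CPT2 is the inner-membrane enzyme that completes the carnitine-dependent entry of long-chain fatty acids into the mitochondrial matrix, the fuel route on which fasting liver relies. In the integrated stress response, the kinases HRI, PERK, GCN2 and PKR phosphorylate the translation factor eIF2alpha, which slows most protein synthesis while translation of the Atf4 mRNA rises. ATF4 then dimerises with C/EBP or other bZIP partners and binds C/EBP-ATF response elements, turning on genes of amino acid synthesis, amino acid uptake, tRNA charging and feedback on the pathway itself. Phosphorylation of eIF2alpha and the amount of ATF4 protein are not visible in RNA counts.

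The promoters that hold the core of the C/EBP-ATF response element are printed because they show which members carry the letters that ATF4 dimers read close to their start. The core was searched as TGATGNAA, where N is any base, on both strands of the 250 bases before each start in RefSeq promoters of GRCm38.p6, and 29 of the 33 members had a promoter there. It was present in 6 of the 29 members (20.7%) and in 3.91% of the 27025 genes of that promoter table, or 3.45% of its 32851 promoters. The stretches are given 5′ to 3′ in the direction of the gene, and the capitals mark the core, or its reverse complement where the core lies on the other strand.
Nupr1: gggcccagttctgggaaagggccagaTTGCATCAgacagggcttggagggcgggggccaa
Chac1: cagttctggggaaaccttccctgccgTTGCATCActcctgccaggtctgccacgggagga
Asns: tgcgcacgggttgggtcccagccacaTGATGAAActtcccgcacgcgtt
Pycr1: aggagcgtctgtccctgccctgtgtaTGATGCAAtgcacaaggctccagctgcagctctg
Pck2: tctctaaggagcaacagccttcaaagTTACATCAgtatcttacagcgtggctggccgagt
Slc7a11: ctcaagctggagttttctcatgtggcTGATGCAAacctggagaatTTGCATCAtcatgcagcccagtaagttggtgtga
The Nupr1 stretch lies at chr7:126625547-126625606 on the minus strand, with the core 110 to 103 bases before the start. The Chac1 stretch lies at chr2:119351023-119351082 on the plus strand (core 193 to 186 bases before the start), and that of Asns at chr6:7693210-7693258 on the minus strand (23 to 16 bases). The Pycr1 stretch lies at chr11:120643818-120643877 on the minus strand and the Pck2 stretch at chr14:55540137-55540196 on the plus strand, both with the core 103 to 96 bases before the start. Slc7a11, at chr3:50443627-50443705 on the minus strand, was the member shown with 2 cores, 66 to 59 and 47 to 40 bases before the start. The stricter form TGATGCAA, which overlaps TGATGNAA, was held by 4 of the 29 members (13.8%) and 0.918% of all genes. The cAMP response element TGACGTCA, to which other bZIP dimers bind, was held by 1 of the 29 members (3.45%), Ppp1r15a, and by 1.77% of all genes. A match is a description of letters and not of a bound site, and 5 members had more than 1 promoter in the table.

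Libraries held 14710304 to 20030055 counts (median 17908507), so that a gene without a count could have had up to 0.150 to 0.204 CPM, the count scaled to the library total. Cpt2 was at 199, 252, 239 and 251 CPM in the WT livers, at 110.5, 157, 108 and 126 in the SKO livers and at 119, 123, 127 and 101 in the DKO livers. The knockout livers lay below every WT liver, with log2 fold changes of -0.89 (adjusted p = 0.000826) for SKO and -0.99 (adjusted p = 0.00627) for DKO (edgeR quasi-likelihood test, Benjamini-Hochberg). Atf3, the stress-induced bZIP factor deleted in DKO, was at 1.77, 1.21, 1.11 and 2.16 CPM in WT, 24.5, 53.4, 29.2 and 14.4 in SKO and 7.92, 10.7, 13.6 and 0.270 in DKO livers. All DKO livers lay below all SKO livers for Atf3 (log2 fold change -1.91, edgeR unadjusted p = 0.0243, adjusted p = 0.701). Counts of both genes are summed over the whole gene and do not separate the floxed exons, so they do not show how complete either deletion was. DKO replicates 1 to 3 still lay above every WT liver for Atf3, and replicate 4 lay below them. SKO replicate 3 held 18063 Xist counts and DKO replicate 4 held 20855, with 2 and 0 counts over Y-linked genes, whereas the other 10 livers held 1 to 19 Xist counts. The sequenced mice are described as male, so both livers go against that description, and counts of members called are given with and without them. Albumin took 5.07 to 5.88% of the counts in WT, 2.36 to 4.68% in SKO, 2.69 to 3.00% in DKO replicates 1 to 3 and 7.19% in DKO replicate 4. Summed hepatocyte markers were at 68950 to 86650 CPM in WT and 37600 to 65590 CPM in SKO, with 2 of 5 lower in SKO. Summed macrophage markers were at 129 to 249.8 CPM in WT and 140.2 to 252 CPM in SKO, and 1 of 6 was higher. Cholangiocyte markers were at 6.39 to 12.1 CPM in WT, 2.54 to 3.59 CPM in SKO and 2.55 to 4.48 CPM in DKO, with 1 of the 3 tested lower in SKO. The stellate markers were higher in SKO for 1 of 5 (159 to 193 CPM in WT, 216 to 312 CPM in SKO), the endothelial for 0 of 5, and the erythroid for 2 of 3 with the other lower (109 to 235 CPM in WT, 145 to 501 CPM in SKO). Lymphocyte and neutrophil markers stayed below 4 CPM in sum, and exocrine pancreas markers were at 0.196 to 4.76 CPM in WT and 0 to 0.279 CPM in SKO, with Prss2 at 0 in every liver. The part of these cell types in the results below was not tested.

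Much of the ATF4 program was higher in SKO than in WT livers, but its members did not move as a block. Of the 30 members that passed the filter on low counts, 17 were higher in SKO than in WT at an adjusted p under 0.05 and 1 was lower, while 12 were not called. Among all 14261 genes tested, 16.7% were higher and 15.4% lower. The median log2 fold change was 0.76 over the 30 members and 0.03 over all genes. In 16 of the 30 members every SKO liver was above every WT liver, against 16.4% of all genes. Filtered members were Phgdh, Aldh1l2 and Slc7a11, and a filter of this kind passes a gene through the group in which it is high. Nupr1, Psat1, Mthfd2 and Pycr1 reached the minimum of 0.558 CPM in fewer than 4 WT livers and so passed through the SKO livers. For this minimum CPM were scaled by library total alone, unlike the values per liver below. Of the 26 members that passed without this, 14 were higher and 1 was lower, against 17.6% and 15.4% of the 12442 genes that did so. The median log2 fold change of these 26 was 0.72, against 0.04 over those genes. The tested members with the largest rises were Nupr1, Psat1 and Mthfd2, 3 of those that passed through the SKO livers, followed by Chac1 and Slc3a2, whereas Asns, Psph, Sesn2 and Xpot did not pass the test in either direction.

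**Figure D1:**
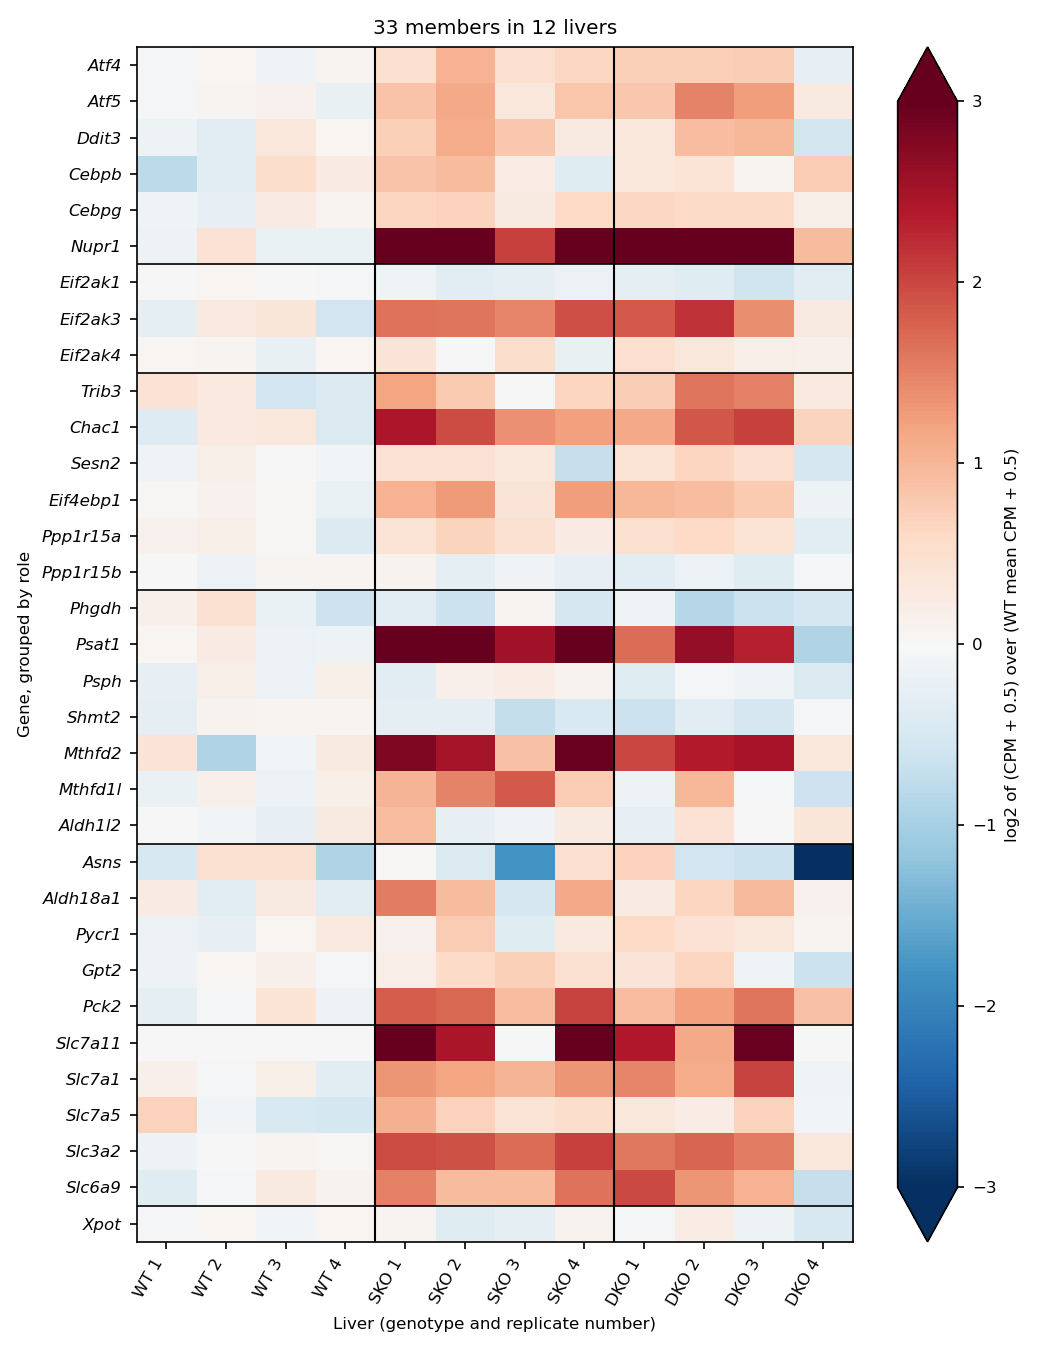
Heat map of the log2 difference of each member (rows, ordered by role) in each of the 12 livers (columns, by genotype and replicate) from the mean of the 4 WT livers, on CPM with 0.5 added and with colours saturated at 3 log2 units. Nupr1, Psat1 and Slc3a2 are high in the SKO livers and in DKO replicates 1 to 3, and DKO replicate 4 lies near the WT livers for most members.

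Among the transcription factors, Atf4 itself was at 81.6, 88.0, 77.3 and 88.5 CPM in WT livers and at 118, 173, 116 and 129.6 CPM in SKO livers. All SKO livers lay above all WT livers, and the Atf4 mRNA rose by 0.70 on the log2 scale (SE 0.145, edgeR adjusted p = 0.00346). Atf5, a bZIP factor that is under similar translational control and linked to the mitochondrial unfolded protein response, was at 382, 416, 429 and 332 CPM in WT and at 703, 853, 490.5 and 693 CPM in SKO. The groups did not overlap for Atf5, SKO replicate 3 was the lowest knockout liver, and the log2 fold change was 0.83 (SE 0.174, edgeR adjusted p = 0.0036). Nupr1, a small stress-induced chromatin protein, was at 0.416, 0.890, 0.391 and 0.387 CPM in WT and at 15.0, 29.7, 3.73 and 34.6 CPM in SKO. Its log2 fold change of 5.33 (SE 0.665, edgeR adjusted p = 0.000125) was the largest of the tested members. Every SKO liver lay above every WT liver, although SKO replicate 3 was far below the other 3. Cebpg, a C/EBP partner of ATF4, rose by 0.58 on the log2 scale (SE 0.145, edgeR adjusted p = 0.0101) without overlap. Ddit3, which encodes CHOP, the factor tied to cell death under lasting stress, rose by 0.81 (SE 0.216, edgeR adjusted p = 0.0136) with 6.11 to 9.91 CPM in WT and 9.49 to 17.5 CPM in SKO and with SKO replicate 4 inside the WT range. Cebpb, a C/EBP factor with a wide role in liver gene control, spread from 58.1 to 147 CPM among the WT livers alone and did not pass the test (log2 fold change 0.54, edgeR adjusted p = 0.231). Parts of Atf5, Ddit3 and Cebpb overlap Nup62, Mars1 and Peds1 on the opposite strand by 571, 68 and 908 bases. Whether the counting used strand was not stated, so reads of these pairs cannot be told apart there, and Peds1 was itself at 275 to 416 counts in WT and 728 to 1818 in SKO.

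Of the 3 kinases, 1 was called higher, against 16.7% of all genes, and 2 were not called. Eif2ak3, encoding PERK, the kinase of the endoplasmic reticulum, was at 11.2, 16.7, 17.7 and 8.96 CPM in WT and at 43.5, 42.8, 38.5 and 53.6 CPM in SKO. Every SKO liver lay above every WT liver, with a log2 fold change of 1.73 (SE 0.208, edgeR adjusted p = 0.000103). Eif2ak1, encoding HRI, the heme-regulated kinase that also receives mitochondrial stress signals, was at 57.3, 59.3, 56.2 and 55.2 CPM in WT and at 52.4, 44.7, 47.4 and 50.5 CPM in SKO. All SKO livers were below all WT livers for Eif2ak1, but the difference was small and did not pass the test (log2 fold change -0.21, 95% interval -0.44 to 0.02, edgeR adjusted p = 0.147). Eif2ak1 overlaps Aimp2, which had 72 to 89 counts in WT and 129 to 212 in SKO, on the opposite strand by 1548 bases. Eif2ak4, encoding GCN2, the kinase that senses uncharged tRNA, ranged from 10.8 to 13.5 CPM in WT and from 10.8 to 18.5 CPM in SKO and was not called (log2 fold change 0.23, edgeR adjusted p = 0.386).

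Feedback and growth regulators were called higher in 3 of 6 cases, against 16.7% of all genes. Chac1, an enzyme that degrades glutathione and whose printed promoter holds the core, was at 1.09, 2.04, 2.15 and 1.05 CPM in WT and at 10.7, 7.64, 4.92 and 4.35 CPM in SKO. The groups did not overlap, and the log2 fold change was 2.15 (SE 0.357, edgeR adjusted p = 0.000839). Eif4ebp1, encoding 4E-BP1, the mTORC1-controlled brake on cap-dependent translation, was at 46.4, 49.4, 46.2 and 39.6 CPM in WT and at 94.6, 112, 59.5 and 108 CPM in SKO. All SKO livers were above all WT livers, SKO replicate 3 the least so, and Eif4ebp1 rose by 1.06 on the log2 scale (SE 0.184, edgeR adjusted p = 0.00113). Of the regulatory subunits that bring a phosphatase to eIF2alpha, the stress-induced Ppp1r15a (GADD34) rose by 0.48 (SE 0.165, edgeR adjusted p = 0.0436), a call that was lost in 9 of 15 alternative analyses. Its constitutive counterpart Ppp1r15b (CReP) had a log2 fold change of -0.10 (95% interval -0.38 to 0.17, edgeR adjusted p = 0.574). Trib3, a pseudokinase that restrains AKT and ATF4, was at 20.4, 18.5, 9.91 and 11.0 CPM in WT and at 34.5, 26.1, 14.8 and 23.8 CPM in SKO. The Trib3 groups overlapped through SKO replicate 3, and the difference missed the threshold (log2 fold change 0.74, edgeR adjusted p = 0.0687) and passed it in 6 of 15 alternative analyses, among them without that liver (edgeR adjusted p = 0.0164) and with all 8 livers in DESeq2 (adjusted p = 0.0456). Sesn2, which holds back mTORC1 when leucine is scarce, was above every WT liver in SKO replicates 1 to 3 and below them all in SKO replicate 4 (25.4, 25.2, 23.2 and 11.3 CPM, against 17.1 to 21.2 in WT). It was not called with the 4 livers (edgeR adjusted p = 0.524) and was called without replicate 4 (adjusted p = 0.0318).

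**Figure D2:**
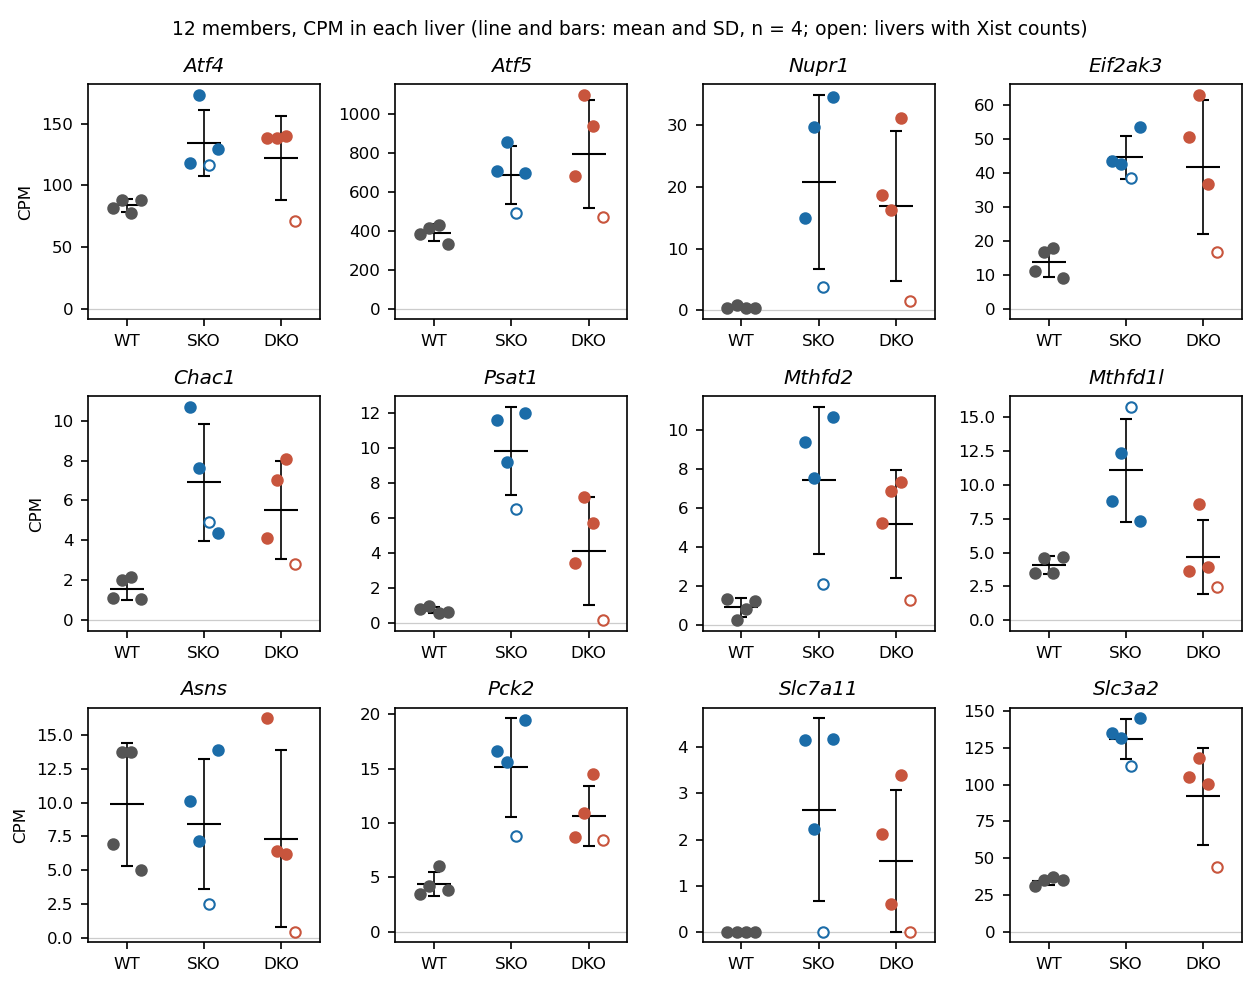
CPM of 12 members in each liver, as points by genotype with a line at the mean and bars of 1 SD (n = 4), and open points for the livers that hold Xist counts (SKO replicate 3 and DKO replicate 4). Psat1 and Slc3a2 show no overlap of SKO with WT, Asns overlaps throughout, and the open DKO point is low in most panels.

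Serine and one-carbon enzymes gave some of the largest differences and also the only decrease called among the members. Psat1, the aminotransferase of serine synthesis, was at 0.780, 0.954, 0.587 and 0.608 CPM in WT and at 11.6, 9.21, 6.52 and 12.0 CPM in SKO. The lowest SKO liver was several times above the highest WT liver, and the log2 fold change was 3.75 (SE 0.280, edgeR adjusted p = 4.68e-06). Mthfd2, the mitochondrial folate enzyme that is low in most adult tissue, was at 1.35, 0.254, 0.848 and 1.22 CPM in WT and at 9.41, 7.54, 2.12 and 10.7 CPM in SKO. There was no overlap, although SKO replicate 3 came close to the WT livers, and Mthfd2 rose by 3.00 (SE 0.525, edgeR adjusted p = 0.00119). Mthfd1l, which releases formate from mitochondrial folate, was at 3.49, 4.58, 3.52 and 4.70 CPM in WT and at 8.84, 12.4, 15.8 and 7.31 CPM in SKO. Here SKO replicate 3 was the highest liver, the groups did not overlap, and the log2 fold change was 1.46 (SE 0.250, edgeR adjusted p = 0.00101). Shmt2, the mitochondrial enzyme that splits serine into glycine and a folate-bound carbon, fell by 0.41 on the log2 scale (edgeR adjusted p = 0.0451), with 178 to 230.3 CPM in WT and 130.4 to 179 CPM in SKO. The groups overlapped at WT replicate 1, and the Shmt2 call was lost in 9 of 15 alternative analyses. The other enzymes of serine synthesis stayed low: Psph, the last step, was at 3.38 to 4.71 CPM in WT and 3.20 to 4.81 CPM in SKO (log2 fold change 0.09, 95% interval -0.39 to 0.56, edgeR adjusted p = 0.803). Psph overlaps Cct6a, which had 2205 to 4364 counts, on the opposite strand by 452 bases. Phgdh, the entry step, was at 0.624, 0.890, 0.391 and 0.166 CPM in WT and 0.320, 0.152, 0.569 and 0.223 CPM in SKO, too low to test. Aldh1l2, a mitochondrial folate dehydrogenase, did not exceed 0.641 CPM in any liver and was likewise not tested.

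Asns, the asparagine synthetase often used as a readout of ATF4, was not called in either direction. It was at 6.97, 13.7, 13.8 and 5.03 CPM in WT and at 10.1, 7.19, 2.48 and 13.9 CPM in SKO. WT and SKO livers were fully interleaved, and the interval of the difference was wide (log2 fold change -0.21, 95% interval -1.20 to 0.77, edgeR adjusted p = 0.764). Pck2, the mitochondrial enzyme that makes phosphoenolpyruvate, was at 3.49, 4.20, 6.00 and 3.87 CPM in WT and at 16.6, 15.6, 8.80 and 19.5 CPM in SKO. All SKO livers were above all WT livers, with a log2 fold change of 1.80 (SE 0.260, edgeR adjusted p = 0.000316). Gpt2, the mitochondrial alanine aminotransferase, was at 909 to 1117 CPM in WT and 1159 to 1676 CPM in SKO. It rose by 0.52 (SE 0.146, edgeR adjusted p = 0.0182), with no overlap. Of the proline enzymes, Aldh18a1, the entry step, was above every WT liver in SKO replicates 1, 2 and 4 and below them in replicate 3 (4.10, 2.58, 0.621 and 3.01 CPM, against 0.763 to 1.44 in WT). Its difference missed the threshold with that liver (log2 fold change 1.24, edgeR adjusted p = 0.0748) and passed in 4 of 15 alternative analyses, among them without it (adjusted p = 0.00469) and with all livers in DESeq2 (adjusted p = 0.0487). Pycr1, the last step of proline synthesis, was near the limit of detection at 0.311 to 1.26 CPM in SKO (log2 fold change 0.49, edgeR adjusted p = 0.465).

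Amino acid transporters were higher in SKO for 3 of the 4 tested, against 16.7% of all genes. Slc3a2, the heavy chain CD98 that pairs with the light chains encoded by Slc7a5 and Slc7a11, was at 31.0, 35.0, 36.9 and 35.5 CPM in WT and at 135, 132, 112 and 145 CPM in SKO. The groups were far apart and tight within themselves, and the log2 fold change of 1.94 (SE 0.122) had the smallest adjusted p of the members (edgeR, 1.73e-06). Slc7a11, the cystine transporter xCT, had no count in any WT liver and 4.16, 2.23, 0 and 4.18 CPM in the SKO livers. With the 4 WT libraries together at the limit of 3 counts, the 184 counts of the SKO livers put Slc7a11 at least 65.6-fold higher in SKO, though SKO replicate 3 also had none. Slc7a1, the cationic amino acid transporter CAT1, was at 1.35, 1.08, 1.37 and 0.830 CPM in WT and at 3.65, 3.24, 2.85 and 3.63 CPM in SKO. Slc7a1 did not overlap and rose by 1.54 on the log2 scale (SE 0.261, edgeR adjusted p = 0.000978). Slc6a9, the glycine transporter GLYT1, was at 26.3, 32.9, 41.0 and 36.5 CPM in WT and at 97.7, 66.3, 66.0 and 107 CPM in SKO. It too was without overlap, with a log2 fold change of 1.32 (SE 0.191, edgeR adjusted p = 0.000335). Slc7a5, the light chain LAT1 for large neutral amino acids, was at 5.25, 2.86, 2.09 and 1.94 CPM in WT and at 6.85, 5.21, 4.19 and 4.58 CPM in SKO. WT replicate 1 stood above the other WT livers within the SKO range, and Slc7a5 was not called (log2 fold change 0.78, edgeR adjusted p = 0.0914), but was called in 2 of 15 alternative analyses, without that liver (adjusted p = 0.0096) and with the replicate block (adjusted p = 0.0239). Xpot, the exporter of tRNA from the nucleus, had a log2 fold change of -0.08 (95% interval -0.38 to 0.21, edgeR adjusted p = 0.687).

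The members' rise was uneven over single livers as well. Counted against every WT liver, 25, 22, 20 and 21 of the 30 members were higher in SKO replicates 1 to 4, against 31.6, 36.3, 33.1 and 35.8% of all genes. In WT replicates 1 to 4, 3, 9, 14 and 4 of them were higher than in the other 3 WT livers, against 22.2, 26.4, 28.2 and 23.2%. The 30 include Nupr1, Psat1, Mthfd2 and Pycr1, which passed the filter through the SKO livers. The median log2 difference of the members from the WT mean was 0.91, 0.97, 0.47 and 0.62 in the 4 SKO livers. SKO replicate 3 was the lowest of its genotype in 19 of 31 members, against 25.2% of all genes. Without it 19 of 31 members tested were called, all higher, against 17.3% of all genes higher and 15.2% lower. Nupr1, Psat1, Slc7a11 and Pycr1 then passed the filter through the SKO livers. Of the other 27 members 16 were called, all higher, against 18.3% higher and 14.9% lower of the 12769 genes that passed without this. The bound for Slc7a11 was at least 89.1-fold. Of the 17 increases, 14 were called in every alternative that gave a value, and Ddit3, Ppp1r15a and Gpt2 were not. Scaling by library size alone moved the median of all genes from 0.03 to 0.20 on the log2 scale and the share of calls that were increases from 52.0 to 70.6%, while the members stayed 0.72 above the median of all genes instead of 0.73. For DKO against WT the same scaling moved that share from 58.0 to 79.2%.

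The same program was then compared between DKO and WT livers, a comparison that shares the WT livers with the one above, so the values stand side by side and are not independent. With all 4 DKO livers, 7 of 30 members were higher (Atf5, Nupr1, Eif2ak3, Chac1, Mthfd2, Pck2 and Slc3a2) and 1 was lower (Eif2ak1), against 6.06% and 4.39% of all 14448 genes. Nupr1, Asns, Psat1, Mthfd2 and Pycr1 passed the filter through the group in which they were higher. Of the other 25 members 5 were higher and 1 lower, against 6.29% and 4.65% of the 12639 genes that passed without this. The median log2 fold change was 0.57 over the 30 members, 0.51 over those 25 and 0.03 over all genes. Of the 30, 6 lay above WT without overlap, against 8.01% of all genes. DKO replicate 4 was the lowest DKO liver in 27 of 31 members, against 37.5% of all genes. The other DKO livers were above every WT liver in 20 to 23 of 30 members, against 33.3 to 35.1% of all genes. Replicate 4 was so in 7 of 30 members, against 26.3% of all genes. Its median log2 difference from the WT mean was -0.05, against 0.62 to 0.76 in DKO replicates 1 to 3. It was also the DKO liver with Xist counts and the largest albumin share. Its hepatocyte markers were at 89940 CPM in sum, against 39920 to 47130 CPM in DKO replicates 1 to 3. That sum was mostly albumin (75230 CPM, against 24990 to 28500 CPM), and Ttr was also above the other DKO livers. Apoa1 was below them (5209 CPM, against 7745 to 9075 CPM), and Hnf4a and Cps1 lay within their range. Macrophage markers of replicate 4 were at 274.8 CPM in sum, against 88.9 to 127 CPM, although Cd68 was lower (9.615 CPM, against 11.5 to 25.3 CPM). Its lymphocyte markers were at 3.94 CPM, against 1.75 to 1.98 CPM. The part of these values in the difference was not tested. Without replicate 4, 18 of 31 members were higher and 2 lower (Eif2ak1 and Shmt2), against 18.4% and 17.5% of all 14634 genes. The median was 0.79 over the 31 members, against 0.02 over all genes. Nupr1, Psat1, Slc7a11, which had no count in WT, and Pycr1 then passed the filter through the DKO livers. Of the other 27 members 15 were higher and 2 lower, against 19.3% and 17.7% of the 12931 genes that passed without this. The median over these 27 members was 0.60, against 0.03 over those genes. Leaving out any other single liver of the comparison instead brought the 8 calls to between 1 and 4, and those over all genes to between 244 and 719 (1.63 to 4.81% of the genes tested), and Nupr1 was the member called in every alternative.

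**Figure D3:**
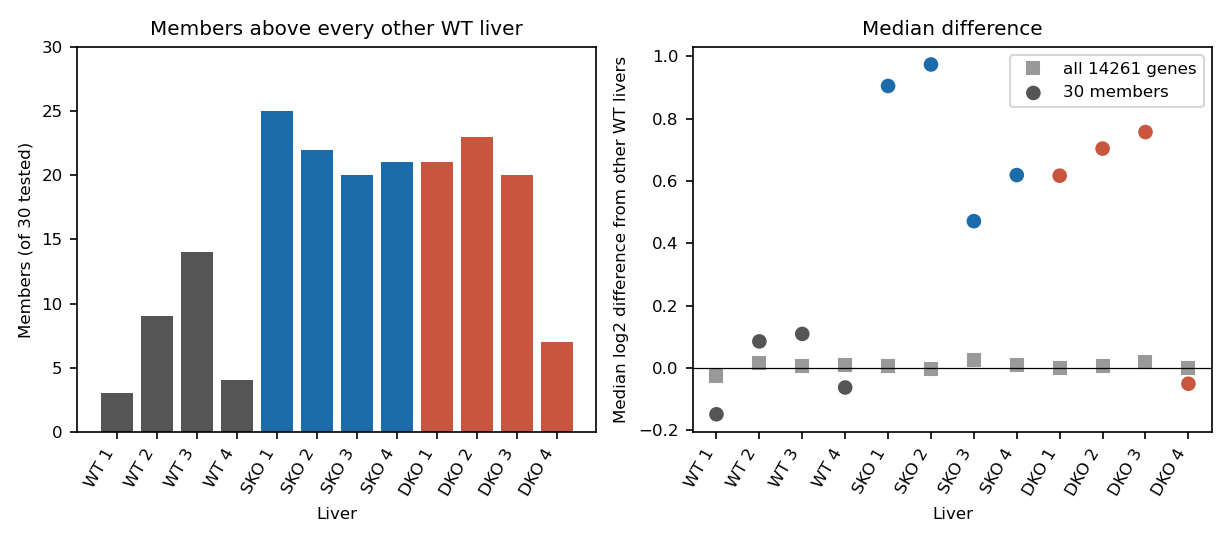
Left, number of the 30 tested members that lie above every other WT liver in each of the 12 livers (bars, coloured by genotype). Right, median log2 difference from the mean of the other WT livers over the 30 members (coloured points) and over all genes (grey squares), where the SKO livers lie between 0.47 and 0.97, DKO replicates 1 to 3 between 0.62 and 0.76 and DKO replicate 4 at -0.05.

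In DKO the Atf4 mRNA was at 138, 139, 139.8 and 70.8 CPM, so that 3 livers were above every WT liver and replicate 4 was below them all. The log2 fold change against WT was 0.55 (edgeR adjusted p = 0.111) with replicate 4 and 0.74 (edgeR adjusted p = 0.000149) without it. Atf5 was at 679, 1094, 938 and 467 CPM and rose by 1.04 (SE 0.246, edgeR adjusted p = 0.0317), with every DKO liver above every WT liver. Nupr1 was at 18.8, 16.3, 31.2 and 1.46 CPM. Its replicate 4 was again the lowest but still above the WT livers, and the log2 fold change was 5.03 (SE 0.824, edgeR adjusted p = 0.0113). Eif2ak3 was at 50.6, 62.9, 36.8 and 16.7 CPM and rose by 1.62 (SE 0.375, edgeR adjusted p = 0.0295), with replicate 4 inside the WT range. Chac1 was at 4.11, 7.04, 8.08 and 2.81 CPM, all above WT, a rise of 1.82 (SE 0.395, edgeR adjusted p = 0.0244). Eif2ak1 was at 46.1, 44.2, 37.4 and 45.0 CPM, below every WT liver, and fell by 0.39 on the log2 scale (edgeR adjusted p = 0.0443). Replicate 4 lay among the other DKO livers for the HRI transcript, and without it the log2 fold change was -0.41 (edgeR adjusted p = 0.00922). The Eif2ak1 call was lost in 10 of 15 alternative analyses, with adjusted p of 0.0805 to 0.166. Of the 7 increases called in DKO, that of Nupr1 was lost in 0 of the 15, those of Pck2 and Slc3a2 in 4 each, and those of Chac1, Atf5, Eif2ak3 and Mthfd2 in 6 to 8. Without replicate 4 the log2 fold changes were 1.22 for Atf5, 5.41 for Nupr1, 1.89 for Eif2ak3 and 2.03 for Chac1, all called (edgeR adjusted p at most 0.000717).

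Among the metabolic members, replicate 4 was again the lowest DKO liver for each gene named here. Psat1 was at 3.43, 7.22, 5.71 and 0.162 CPM, so replicates 1 to 3 were above all WT livers and replicate 4 was below them. Psat1 was not called with 4 livers (log2 fold change 2.49, edgeR adjusted p = 0.0685) and was called with 3 (2.89, adjusted p = 5.83e-05). Mthfd2 was at 5.22, 6.86, 7.36 and 1.30 CPM, with replicate 4 inside the WT range, and rose by 2.48 (SE 0.581, edgeR adjusted p = 0.0307). Pck2 was at 8.74, 10.9, 14.5 and 8.48 CPM with no overlap, a rise of 1.29 (SE 0.240, edgeR adjusted p = 0.0166). Slc3a2 was at 105, 118, 101 and 43.9 CPM, all above WT, and rose by 1.42 (SE 0.262, edgeR adjusted p = 0.0163). Without replicate 4 the log2 fold changes were 2.79 for Mthfd2, 1.39 for Pck2 and 1.65 for Slc3a2, all called (edgeR adjusted p at most 0.000901). Slc7a11 was at 2.13, 0.607, 3.40 and 0 CPM, and its 120 counts were at least 41.2-fold above the limit of the WT livers. Asns was at 16.3, 6.43, 6.17 and 0.432 CPM, which spanned the WT range on both sides (log2 fold change -0.41, 95% interval -2.02 to 1.21, edgeR adjusted p = 0.752). Mthfd1l was at 3.62, 8.62, 3.96 and 2.48 CPM, overlapping WT, and was called neither with 4 livers (log2 fold change 0.20, edgeR adjusted p = 0.747) nor with 3 (0.41, adjusted p = 0.334).

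Several regulators and transporters were not called against WT with all 4 DKO livers and were called without replicate 4. Trib3 was at 25.4, 46.7, 43.9 and 18.4 CPM, with replicate 4 inside the WT range, and its log2 fold change was 1.17 (edgeR adjusted p = 0.0551) with that liver and 1.37 (adjusted p = 0.00254) without it. Eif4ebp1 was at 90.7, 86.1, 78.6 and 40.8 CPM and passed the test without replicate 4 (0.92, edgeR adjusted p = 7.5e-05) but not with it (0.72, adjusted p = 0.0691). Sesn2 and Ppp1r15a, at 24.8, 29.3, 26.1 and 13.0 CPM and 19.5, 21.3, 18.7 and 11.2 CPM, were likewise called without it (log2 fold changes 0.53 and 0.52, edgeR adjusted p = 0.00432 and 0.0222) and not with it (adjusted p = 0.345 and 0.304). These 4 regulators were above every WT liver in replicates 1 to 3. Without replicate 4, 5 of the 6 members with this role were called higher, Chac1 included, against 18.4% of all genes. The transporter Slc7a1 was at 4.11, 3.10, 6.28 and 1.03 CPM and Slc6a9 at 136, 86.6, 71.4 and 20.8 CPM, each with replicate 4 inside or below the WT range. Slc7a1 had a log2 fold change of 1.66 (edgeR adjusted p = 0.0571) with 4 livers and 1.96 (adjusted p = 0.000671) with 3. Slc6a9 had one of 1.22 (edgeR adjusted p = 0.101) with 4 livers and 1.53 (adjusted p = 0.000248) with 3. Among the transcription factors, Cebpg was not called with 4 livers (edgeR adjusted p = 0.0566) and was called with 3 (0.60, adjusted p = 0.00312). Ddit3 was likewise not called with 4 (edgeR adjusted p = 0.265) and was called with 3 (0.83, adjusted p = 0.0103). With all 4 DKO livers, DESeq2 called Psat1 (adjusted p = 0.00734), Trib3 (0.0107), Eif4ebp1 (0.0395), Slc7a1 (0.0101), Slc6a9 (0.0371) and Cebpg (0.037). Psat1, Trib3 and Slc7a1 were also called by edgeR with all 4 DKO livers in each of 3 alternatives (library size alone, no filter on low counts and the fit over 12 livers), at adjusted p of 0.0244 to 0.0463. Eif4ebp1 was so by library size alone (edgeR adjusted p = 0.0381), and Cebpg by library size alone (0.0265) and in the fit over 12 livers (0.0488). Gpt2, by contrast, was at 1316, 1589, 925 and 648 CPM and was called neither with replicate 4 (log2 fold change 0.15, edgeR adjusted p = 0.728) nor without it (0.34, adjusted p = 0.136).

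DKO was compared with SKO to ask whether the program differed with the loss of Atf3. A difference of mouse line and the Atf3 deletion cannot be told apart in this comparison either. None of the 31 members tested was called by edgeR, against 0.0209% of all 14363 genes, and DESeq2 and every other alternative also called 0. At an unadjusted p under 0.05, 1 member was lower and 0 were higher, against 6.49% of all genes in either direction. Mthfd1l was that member (log2 fold change -1.26, 95% interval -2.10 to -0.42, edgeR unadjusted p = 0.00736, adjusted p = 0.54), at 7.31 to 15.8 CPM in SKO and 2.48 to 8.62 CPM in DKO with the DKO replicate 2 inside the SKO range. The median log2 fold change of the members was -0.17, against 0.01 over all genes. In no member were the groups free of overlap, where DKO lay above SKO in 331 and below it in 243 of all 14363 genes. Asns, Psat1, Slc7a11 and Pycr1 passed the filter through the group in which they were higher. The median of the other 27 members was -0.14, against 0.001 over the genes that passed without this. By role, the median difference was -0.52 over the 5 serine and one-carbon enzymes tested, -0.40 over the 5 transporters, -0.36 over the 5 enzymes of asparagine, proline, alanine and phosphoenolpyruvate synthesis, -0.12 over the 6 transcription factors, -0.12 over the 6 regulators and -0.10 over the 3 kinases. Without DKO replicate 4 these medians were -0.27, -0.28, -0.18, 0.03, -0.04 and 0.13 in the same order, so that those of the transcription factors and kinases turned sign. With both livers that hold Xist counts left out they were -0.51, -0.35, -0.11, -0.04, -0.07 and 0.09. Without DKO replicate 4 again 0 members were called, against 0.103% of all 14589 genes, and the members' median was -0.07. The unadjusted p then fell under 0.05 for Trib3, higher in DKO (log2 fold change 0.64, edgeR unadjusted p = 0.0385), and for Psat1 (-0.86, unadjusted p = 0.0116) and Mthfd1l (-1.06, unadjusted p = 0.0112), lower in DKO, 3 of 31 members against 7.22% of all genes. With both livers that hold Xist counts left out, 0 members were called, against 0.146% of all 14358 genes, and the members' median was -0.16. Psat1, Mthfd2, Mthfd1l, Pck2 and Slc3a2 were lower at an unadjusted p under 0.05, 5 of 31 members against 6.93% of all genes in either direction. The largest of these differences was that of Psat1 (log2 fold change -1.02, edgeR unadjusted p = 0.00271, adjusted p = 0.289). Every DKO liver was then below every SKO liver in 5 of the 31 members (Eif4ebp1, Psat1, Mthfd2, Pck2 and Slc3a2), against 5.04% of all genes, and in 0 members were they all above. Summed macrophage markers were at 88.9 to 127 CPM in DKO replicates 1 to 3 and 140.2 to 252 CPM in the SKO livers, and genes of ribosomal RNA took 1.40 to 2.80% of the counts in DKO, 0.713 to 1.46% in SKO and 0.452 to 1.36% in WT. Their part in these differences was not tested.

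The width of the intervals sets what the DKO and SKO livers could show. In 17 of 31 members the 95% interval of the difference lay within 1 log2 unit of 0, which was so for 69.1% of all genes, and without DKO replicate 4 it did in 21 of 31 members and 71.4% of all genes. Atf4 had an interval of -0.66 to 0.37 and Atf5 one of -0.39 to 0.81, both on the log2 scale and with all livers. For Nupr1 it was -1.97 to 1.37 and for Asns -1.86 to 1.47, so that a difference of 1 log2 unit in either direction lay within the interval of both. The intervals of Slc3a2 (-1.09 to 0.06) and Chac1 (-1.17 to 0.51) were wider below 0 than above it. Without DKO replicate 4 the intervals were -0.32 to 0.41 for Atf4, -0.09 to 0.88 for Atf5, -1.07 to 1.25 for Nupr1, -0.86 to 1.27 for Asns, -0.60 to 0.03 for Slc3a2 and -0.85 to 0.62 for Chac1. Without both livers that hold Xist counts they were -0.41 to 0.37, -0.20 to 0.72, -0.94 to 0.42, -0.92 to 0.71, -0.68 to -0.02 and -0.997 to 0.50, and that of Slc3a2 then lay below 0 (edgeR adjusted p = 0.685).

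Levels between members were compared per length, in the deposited FPKM, fragments scaled to gene length and library size. In WT livers Atf5 (204 ± 22.7 FPKM, SD, n = 4) and Gpt2 (187 ± 16.9) were at the top and did not differ beyond their spread. Shmt2 (72.1 ± 8.45) and Cebpb (70.2 ± 28.0) followed, again within their spread, and then Atf4 (37.0 ± 2.29), Ppp1r15b (24.2 ± 2.00), Eif4ebp1 (21.5 ± 1.92) and Xpot (20.7 ± 0.897). Asns was at 3.76 ± 1.73 FPKM and Eif2ak3 at 2.36 FPKM. Of the 5 tested members that rose the most in SKO, Chac1 started at 1.01, Mthfd2 at 0.274, Nupr1 at 0.216 and Psat1 at 0.179 FPKM in WT, and Slc3a2 at 10.2 FPKM. In SKO livers Nupr1 reached 8.60 ± 5.82 FPKM and moved from rank 28 to rank 14 of the 33 members, Slc3a2 reached 38.6 ± 3.96 FPKM and moved from 11 to 7, and Psat1 reached 2.40 ± 0.611 FPKM and moved from 29 to 22. Atf5 (358 ± 79.8 FPKM) and Gpt2 (265 ± 40.2) stayed at the top in SKO.

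**Figure D4:**
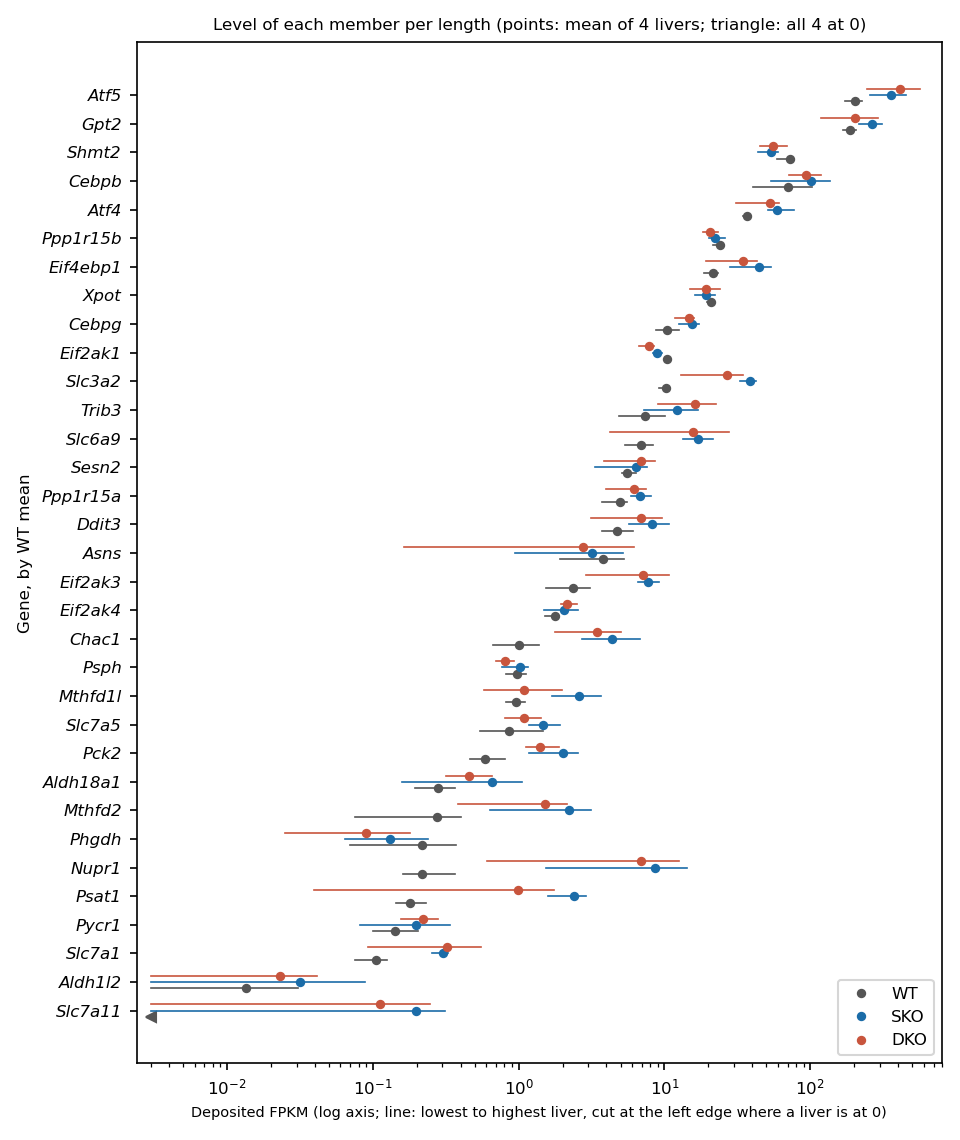
Deposited FPKM of the members in the 3 genotypes on a log axis, as means over 4 livers (points) with lines from the lowest to the highest liver, in the order of the WT level and with a triangle where all livers are at 0. Atf5 and Gpt2 are the highest in WT, at 204 and 187 FPKM, and Nupr1 and Psat1 sit at 0.216 and 0.179 FPKM in WT and at 8.60 and 2.40 FPKM in SKO.

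Of 53 further genes of the pathway, 50 were tested, and 25 were higher and 5 lower in SKO than in WT, against 16.7% and 15.4% of all genes. Cytosolic aminoacyl-tRNA synthetases, which charge tRNA with amino acids, rose in 10 of 13 cases, and the subunits and regulators of eIF2 and eIF2B in 7 of 11 with 1 lower. The lower one was Eif2ak2, encoding PKR, the kinase that senses double-stranded RNA (log2 fold change -0.89, edgeR adjusted p = 0.001). The relay from mitochondria to HRI was not called in either gene: Oma1, the inner-membrane protease, had a log2 fold change of 0.23 (edgeR adjusted p = 0.397), and Dele1, the protein it cleaves, of 0.07 (edgeR adjusted p = 0.67). Other amino acid transporters and transsulfuration genes were higher in 0 and lower in 4 of 7. Cth, the enzyme that releases cysteine from cystathionine and an ATF4 target in other settings, was at 856, 1021, 833 and 787 CPM in WT and at 111, 71.6, 93.5 and 51.3 CPM in SKO. Every SKO liver was far below every WT liver, and Cth fell by 3.40 on the log2 scale (edgeR adjusted p = 2.58e-06). Cbs, the preceding step, was at 406 to 539 CPM in WT and 119 to 197 CPM in SKO and fell by 1.67 (edgeR adjusted p = 3.88e-05). Among other targets of ATF4 or CHOP, 8 of 17 were higher. Fgf21, the fasting hormone of the liver, was at 2.50, 3.37, 5.67 and 1.44 CPM in WT and 49.5, 70.1, 62.6 and 105 CPM in SKO, and rose by 4.50 (SE 0.365, edgeR adjusted p = 8.1e-06). Gdf15, the stress hormone that acts on appetite, was at 1.93, 2.73, 5.61 and 1.82 CPM in WT and 51.8, 55.3, 67.2 and 39.2 CPM in SKO, and rose by 4.17 (SE 0.327, edgeR adjusted p = 6.1e-06). Both hormones were without overlap between the groups.

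Against WT, 12 of the 50 were higher and 2 lower in DKO, against 6.06% and 4.39% of all genes, or 27 and 6 without DKO replicate 4, against 18.4% and 17.5%. Against SKO, 0 were called by edgeR and by DESeq2, and at an unadjusted p under 0.05 Cbs, Cth and Ndrg1 were higher and Atf3 lower in DKO, 4 of 50 against 6.49% of all genes. That count was 7 higher and 1 lower of 50 both without DKO replicate 4, against 7.22%, and without both livers that hold Xist counts, against 6.93%. Cth was at 89.6, 126, 74.2 and 696 CPM in DKO and Cbs at 228, 288, 186 and 631 CPM. Their differences from SKO were 1.61 (edgeR adjusted p = 0.735) and 1.20 (adjusted p = 0.557) on the log2 scale, and replicate 4 was the highest DKO liver for both. Without that liver the differences were 0.23 (edgeR adjusted p = 0.937) and 0.67 (adjusted p = 0.45). Ndrg1, a stress-responsive growth regulator, differed by 0.58 (edgeR adjusted p = 0.75). Fgf21 was at 81.2, 146, 175 and 25.2 CPM and Gdf15 at 95.6, 112, 94.3 and 31.9 CPM in DKO. Neither hormone was called against SKO, with log2 fold changes of 0.57 (95% interval -0.47 to 1.61, edgeR adjusted p = 0.906) and 0.64 (95% interval -0.09 to 1.37, adjusted p = 0.79), and DKO replicate 4 was the lowest DKO liver for each. Without that liver the differences were 0.91 for Gdf15 (edgeR unadjusted p = 0.000413, adjusted p = 0.137), 0.89 for Fgf21 (unadjusted p = 0.00792, adjusted p = 0.444) and 0.71 for Ndrg1 (unadjusted p = 0.0115, adjusted p = 0.488) on the log2 scale. With both livers that hold Xist counts left out, the difference of Gdf15 was 1.04 (edgeR unadjusted p = 9.08e-05, adjusted p = 0.0543), that of Fgf21 0.84 (adjusted p = 0.572), that of Ndrg1 0.62 (adjusted p = 0.659), that of Cth 0.29 (adjusted p = 0.922) and that of Cbs 0.85 (adjusted p = 0.182).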

How the data were processed

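Liver RNA from 12 mice fasted for 24 h was sequenced by the authors, and the deposited table holds raw read counts per gene together with the deposited FPKM, which divide counts by gene length and library size. The labels name HISAT2 and the builds GRCm38 and mm10, the gene counter and whether counting used strand are not given in the sources used here, and the gene coordinates of the table equal those of GRCm38 for 2.83% of shared genes, so none are printed. Members and lists were chosen with earlier results of these data known. All 33 members are named, with the 5 other pathway genes of smallest p in SKO against WT and in DKO against SKO, Eif2ak2, Oma1, Dele1, Fgf21 and Gdf15, and the knockout targets.

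Counts were tested for each pair of genotypes with edgeR 4.0.16 (limma 3.58.1, R 4.3.3): filterByExpr, TMM factors within the pair, quasi-likelihood F test, two-sided, Benjamini-Hochberg over all genes tested, threshold 0.05. Standard errors and 95% intervals come from the same fit. Values per liver are CPM with TMM factors over 12 livers, and log2 differences of single livers add 0.5 CPM. The limit of a gene without a count is 3 counts, which covers counting error only. No pair of libraries of a genotype agreed within sampling noise (smallest chi-square per degree of freedom 20.6). Alternatives were DESeq2 1.42.0, other scalings and filters, a fit over all 12 livers, a replicate block, leaving out each liver and, for DKO against SKO, leaving out both livers with Xist counts, which were known from earlier results. Deposited tables of the authors' own pairwise comparisons, which hold fold changes and p-values, were not used. Promoter sequences are RefSeq's for GRCm38.p6.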

Additional observations from a re-analysis of the deposited data

Results flagged for a closer look

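In 6 of 90 sets of 4 livers, the highest or lowest liver stood further from the rest than Dixon's 95% limit for its share of the range, where about 1 in 20, or 4.5 sets, would do so by chance. DKO replicate 4 was apart from the other DKO livers for Atf4, at 70.8 CPM, and for Cebpg, at 64.2 CPM. WT replicate 2 was high for Nupr1, at 0.891 CPM, WT replicate 3 was low for Eif2ak4, at 10.8 CPM, and WT replicate 1 was low for Shmt2, at 178 CPM. SKO replicate 4 was low for Sesn2, at 11.3 CPM.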

How the results depend on the processing

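For SKO against WT, the 18 members called became 16 to 19 with a liver left out, the 30 other pathway genes 21 to 33 and the 4576 genes called over all genes 3617 to 4711. Over the single members, 413 of 449 values kept their side of the threshold, 23 lost a call (of Ppp1r15a, Shmt2, Gpt2 or Ddit3) and 13 gained one (of Trib3, Aldh18a1, Slc7a5 or Sesn2), and 5 of the 413, not called in either analysis, changed sign. For DKO against WT, the 8 members became 15 with DESeq2 and 1 to 20 with a liver left out, the 14 other pathway genes 2 to 33, and the 1510 genes 2508 with DESeq2 and 244 to 5253 with a liver left out, where the highest value in each was without DKO replicate 4. For DKO against SKO, 0 members and 0 other pathway genes were called in every alternative, and the 3 genes called over all genes became 91 with DESeq2, 35 with no filter on low counts, 21 without the livers that hold Xist counts and 0 to 15 with a liver left out. No called value changed direction in any alternative. The cause of these changes was not tested beyond the fewer livers or the other genes tested that an alternative has by its construction.

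The replicate numbers in the titles gave livers of different genotypes the same number, with no source for a shared litter or day. Deviations of livers with the same number correlated between -0.42 and 0.15, and not every liver correlated best with its own number, so the numbers were not taken as pairs. With the replicate number as a block, 19 members and 26 other pathway genes were called in SKO against WT, 6 and 6 in DKO against WT and 0 and 0 in DKO against SKO, and 4111, 691 and 0 genes over all genes tested.

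Depth limits the members at or near 0 counts, Phgdh, Aldh1l2, Slc7a11 and Pycr1, for which a library shows nothing under 0.150 to 0.204 CPM. The 4 livers of a genotype limit the rest: the 95% interval between DKO and SKO lay within 1 log2 unit of 0 for 17 of 31 members, and the calls of DKO against WT changed with any liver left out.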
